A study of Mus musculus with 6 samples.

Results

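The kinesins are the genes whose symbol is Kif followed by a digit, which took 38 of the 21936 genes in the deposited count table. They were read in PAM212 cells, a transformed mouse keratinocyte line, in 3 control libraries and 3 libraries of cells that had been infected with a lentivirus bearing the mouse miR-28-3p gene. Both groups grew in DMEM with 10% FBS, and the controls are labelled as not treated, so it is not known whether they went through infection with a vector lacking the gene. The labels do not say if the 3 libraries of a group came from separate cultures, and p-values then measure only the spread between these libraries, which may be technical. The microRNA itself was not measured in these libraries of polyadenylated RNA.

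Kinesins are motor proteins that use ATP to move along microtubules or to take microtubule ends apart. One set of them builds the mitotic spindle, moves chromosomes and completes cytokinesis, and in cycling cells their messages are made mainly in the G2 and M phases. Another set hauls vesicles, endosomes, mitochondria and the building blocks of cilia through the cytoplasm of cells at any stage, in epithelia as in neurons. The 38 genes were therefore split by textbook role into 12 mitotic kinesins, 13 transport kinesins and 13 others, which act in cilia, on microtubule dynamics, in more than one of these settings or in roles less well known.

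Of the 38 kinesins, 31 had enough counts to be tested, 11 of them mitotic, 11 transport and 9 others. Kif1a, Kif2b, Kif6, Kif12 and Kif19a had 0 counts in all 6 libraries, which at a limit of 3 counts allows up to 0.188 to 0.216 CPM (counts scaled to library size with TMM) in a library, by counting error only. Kif17, a motor of dendrites and cilia, had 38 control counts and 19 overexpression counts in sum, and Kif28 had 14 and 7, and both stayed untested. Libraries held between 14309898 and 16383374 counted reads. Averaged over counted reads, the length of their gene was 5091 to 5119 bases in the controls and 6021 to 6050 bases with overexpression, so values with the trend on gene length removed stand beside many of the results. The samples are labelled keratinocyte, while the series' own design line names melanocytes. Of 14 keratinocyte markers, Krt5 and Krt6a stood at 0 in every library, Krt15 summed to 1005 control counts and 0 overexpression counts, and Trp63 had 53 and 5. The summed level of that list was 1163 to 1188 CPM in control cells and 1480 to 1515 CPM under overexpression. That sum hides opposite changes. In group means Itga6 went from 139 to 329 CPM and Cdh1 from 382 to 532 CPM. Perp went from 220 to 152 CPM and Itgb4 from 197 to 141 CPM. Of the 11 tested keratinocyte markers 6 were higher and 5 lower in the test given below, beside 42.1% and 43.9% of all tested genes. The 9 melanocyte markers summed to 8.05 to 9.78 CPM and 7.33 to 8.22 CPM, the 6 fibroblast markers to 43.3 to 52.0 CPM and 16.2 to 17.1 CPM, and the 5 immune markers to 17.3 to 21.02 CPM and 4.23 to 6.01 CPM. At 0 in all libraries were Tyr, Kit and Ednrb of the melanocyte, Lum and Thy1 of the fibroblast and Adgre1 and Cd3e of the immune list. The melanocyte sum also hides opposite changes. Tyrp1 had 0 control and 40 overexpression counts, Dct 0 and 31, Mlana 3 and 9 and Sox10 1 and 6, while Pmel had 87 and 38 and Mitf 329 and 219. Pdgfra made up most of the fibroblast sum (44.9 and 16.4 CPM) and Cd68 most of the immune sum (19.1 and 4.54 CPM). The part of these differences in the results below was not tested. The labels do not say whether both groups came from 1 clone or passage of the line, and such a difference cannot be told apart from overexpression, so a change given here is one between these groups of libraries. In bulk RNA a change in the number of cells at a given stage and a change of RNA per cell cannot be told apart.

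Promoter sequence, which no count enters, was set beside the classes. Many G2 and M phase genes carry a cell cycle homology region (CHR), read here as TTTGAA or TTTAAA on either strand, close to the start of transcription, often with a box for the factor NF-Y, read as CCAAT on either strand. RefSeq promoters (GRCm38.p6, 250 bases before to 50 after the start) were on hand for 31 of the 38 kinesins, 11 mitotic, 10 transport and 10 others, some with 2 starts. Over all of these a CHR form lay in 9 of 11 mitotic promoters (81.8%), 1 of 12 transport promoters (8.3%) and 2 of 12 promoters of the others (16.7%), where 27.6% of all 32851 promoters in the table hold one. Some of the starts lie well inside the gene as the count table gives it, by 1505 bases in Kif14, 3867 in Kif2c, 4175 in Kif27, 11816 in Kif17 and 19471 for the second start of Kif1a, and need not be where these messages begin. Kept to starts within 500 bases of the gene's 5′ end, a limit set after the positions had been seen, a CHR form lay in 7 of 9 mitotic promoters (77.8%), 0 of 10 transport promoters and 1 of 11 promoters of the others (Kif26b). Under the same limit 22.2% of 15118 promoters of genes in the count table held one, and 18.1% of 9141 promoters of tested genes. The mitotic kinesins without one were Kif18a and Kif2b, the latter with 0 counts. Both a CHR form and a CCAAT box lay in 5 of these 9 mitotic promoters and in 9.2% of the 15118. The E2F forms TTTCCCGC and TTTGGCGC on either strand were found in 2 mitotic promoters, Kif15 and Kif18a, and in 2.4% of the 15118. In 0 of the kinesin promoters did matches of different motifs share a base.

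Among the 9 mitotic promoters that start at the gene's 5′ end, 7 had a CHR form within 50 bases of the start on either side, against 6.0% of the 15118, and this window too was chosen after the positions had been seen. The matches nearest to the start are printed to let them be compared, each as 30 bases read 5′ to 3′ on the gene's strand with every CHR form in capitals (TTCAAA is TTTGAA on the opposite strand). The first base of the nearest match is counted from the RefSeq start and is negative before it. That start lies 328 bases inside the count table's gene for Kif4. The match lies in Kif22 at -17 (chr7:127042420-127042449, minus strand), in Kif23 at 3 (chr9:61946780-61946809, minus strand), in Kif15 at -19 (chr9:122951050-122951079, plus strand) and in Kif18b at 4 (chr11:102925104-102925133, minus strand). It lies further in Kif20b at 8 (chr19:34922353-34922382, plus strand), in Kif11 at -19 (chr19:37376351-37376380, plus strand) and in Kif4 at 20 (chrX:100626072-100626101, plus strand).
Kif22: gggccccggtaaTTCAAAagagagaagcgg
Kif23: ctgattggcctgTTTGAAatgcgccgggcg
Kif15: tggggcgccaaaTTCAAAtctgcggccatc
Kif18b: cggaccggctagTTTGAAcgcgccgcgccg
Kif20b: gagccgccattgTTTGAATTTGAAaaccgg
Kif11: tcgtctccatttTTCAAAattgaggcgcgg
Kif4: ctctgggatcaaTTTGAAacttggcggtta
A match to such letters is a description of the sequence and not of a bound factor.

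**Figure D1:**
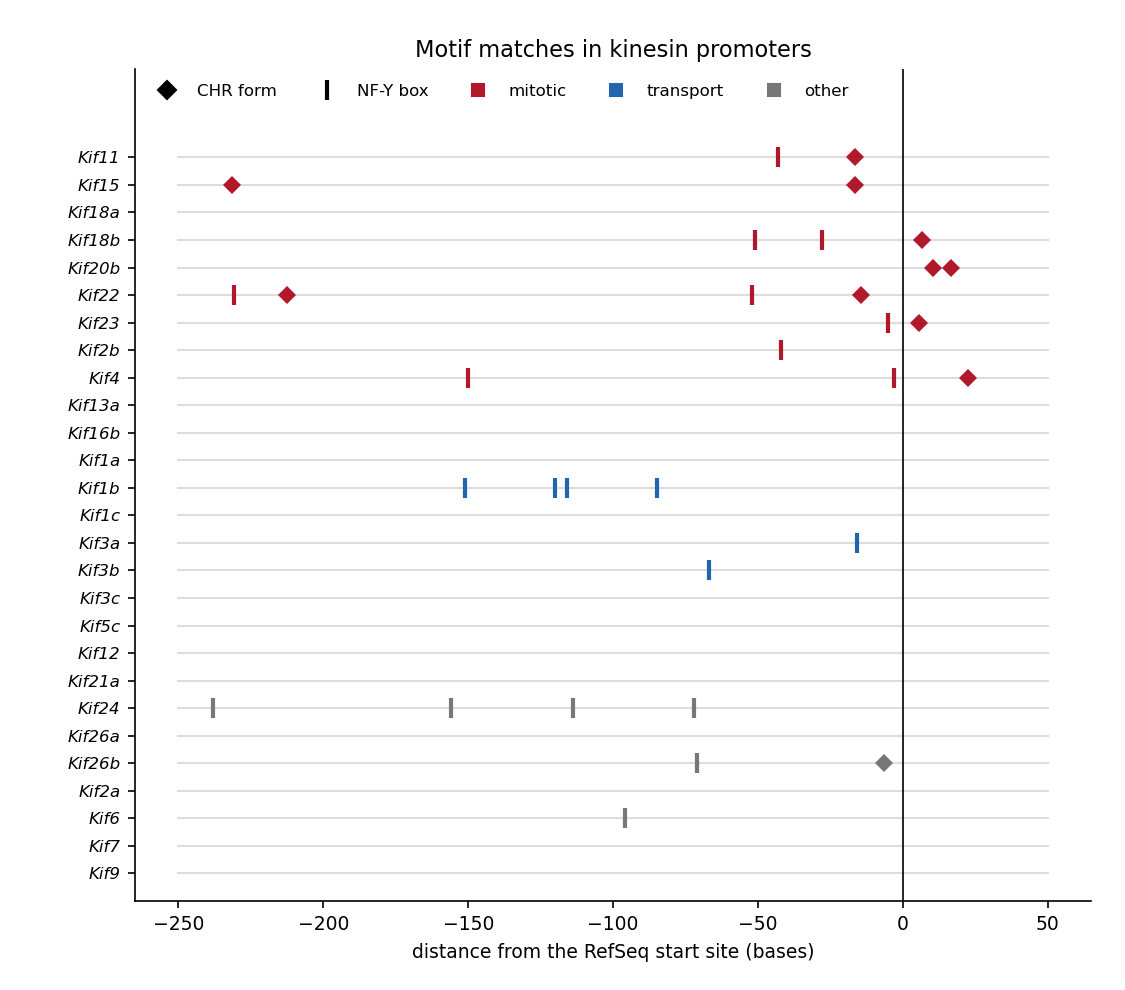
Places of CHR forms (diamonds) and CCAAT boxes for NF-Y (bars) in the promoters of 9 mitotic, 9 transport and 9 other kinesins with a RefSeq start within 500 bases of the gene's 5′ end, as distance from that start in bases (x axis), 1 gene a line, coloured by class, with the matches of genes that have 2 such starts drawn on 1 line. Diamonds lie within 50 bases of the start in 7 of 9 mitotic kinesins and in 0 of the transport kinesins.

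Longer stretches are given to set 2 mitotic promoters beside 3 transport promoters. They belong to the kinesins with the largest rise (Kif20b, Kif1b), the largest fall (Kif5c) and the highest mean level per length over all 6 libraries (Kif11, Kif1c) in each class, leaving aside Kif20a and Kif5b. They are the 250 bases before the start with CHR forms and CCAAT boxes in capitals, and those of Kif1c, Kif5c and Kif20b hold neither. They lie on GRCm38.p6 at chr19:37376132-37376381 (Kif11, plus strand), chr19:34922108-34922357 (Kif20b, plus strand), chr4:149307734-149307983 (Kif1b, minus strand), chr2:49619036-49619285 (Kif5c, plus strand) and chr11:70700298-70700547 (Kif1c, plus strand).
Kif11: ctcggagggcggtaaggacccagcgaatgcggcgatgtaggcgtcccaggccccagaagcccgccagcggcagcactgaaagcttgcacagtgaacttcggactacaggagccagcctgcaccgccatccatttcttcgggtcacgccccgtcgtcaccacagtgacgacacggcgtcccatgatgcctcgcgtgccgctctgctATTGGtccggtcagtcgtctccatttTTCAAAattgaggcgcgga
Kif20b: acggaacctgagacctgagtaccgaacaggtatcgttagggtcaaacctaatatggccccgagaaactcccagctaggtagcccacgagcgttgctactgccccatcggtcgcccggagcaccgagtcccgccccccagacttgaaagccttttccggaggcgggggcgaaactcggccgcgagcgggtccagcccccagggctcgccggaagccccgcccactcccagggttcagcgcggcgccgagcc
Kif1b: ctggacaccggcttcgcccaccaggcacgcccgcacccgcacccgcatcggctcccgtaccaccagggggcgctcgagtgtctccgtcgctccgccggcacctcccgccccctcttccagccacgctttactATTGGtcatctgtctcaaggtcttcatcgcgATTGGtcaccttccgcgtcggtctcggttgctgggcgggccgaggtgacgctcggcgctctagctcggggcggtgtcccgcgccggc
Kif5c: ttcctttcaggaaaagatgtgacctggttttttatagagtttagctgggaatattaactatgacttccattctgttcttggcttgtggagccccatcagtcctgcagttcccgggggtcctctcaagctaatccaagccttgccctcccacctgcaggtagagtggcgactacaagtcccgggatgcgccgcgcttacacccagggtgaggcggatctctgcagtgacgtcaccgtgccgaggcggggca
Kif1c: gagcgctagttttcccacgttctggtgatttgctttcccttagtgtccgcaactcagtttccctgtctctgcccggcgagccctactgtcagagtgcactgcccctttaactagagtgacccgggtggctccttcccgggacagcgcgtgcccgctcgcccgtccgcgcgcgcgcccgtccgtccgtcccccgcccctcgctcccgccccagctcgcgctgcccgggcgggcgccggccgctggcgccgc
Kif11 has a CCAAT box and a CHR form within its last 50 bases, each on the opposite strand. Kif20b has its 2 CHR forms just past the start and so outside the printed stretch. Kif1b has 2 CCAAT boxes, printed as ATTGG since they lie on the opposite strand, and no CHR form.

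All 11 tested mitotic kinesins rose with overexpression, from 1.63-fold for Kif22 to 4.98-fold for Kif20a, and 0 fell (edgeR quasi-likelihood test, Benjamini-Hochberg adjusted p under 0.05 over all 11809 tested genes). Their median log2 fold change was 1.60, where the median of all tested genes was -0.03. A call alone says little here, since 86.0% of all tested genes were called, 42.1% higher and 43.9% lower. The scaling sets part of that split, and with upper quartile scaling 3961 genes were higher and 6288 lower. Against a minimum change of 1.5-fold, 11 of 11 were higher, and 23.4% of all tested genes were higher and 27.0% lower. With the trend on gene length removed, 11 of 11 were again higher, with 43.0% of all genes higher and 42.3% lower. In all 11 the lowest of the overexpression libraries exceeded the highest of the controls, as in 42.2% of all tested genes, while 43.8% lay below.

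Motors that build and hold the spindle rose 3.34-fold (Kif11) and 3.03-fold (Kif15). Kif11, the tetrameric motor that pushes the spindle poles apart (chromosome 19, 37376403 to 37421859, GRCm38 as for all positions here), had 87.5, 80.0 and 77.9 CPM in control cells and 274, 268 and 276 CPM under overexpression. The groups lay far apart, with a log2 fold change of 1.74 ± 0.05 (SE from the spread of log2 CPM, n = 3 against 3, edgeR adjusted p = 4.62e-47). Kif15, which can take over from Kif11 in keeping the spindle bipolar, had 47.5, 50.3 and 45.2 CPM in control cells and 146, 146 and 142 CPM under overexpression. It rose 3.03-fold, and its log2 fold change of 1.60 became 1.14 with the length trend removed, still called (edgeR adjusted p = 1.06e-33). Its gene model of 11020 bases is the longest of the mitotic class.

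Motors at chromosomes and kinetochores rose between 1.63-fold and 3.04-fold. Kif22 (chromosome 7, 127027729 to 127042471), a chromokinesin that pushes chromosome arms away from the poles, had 62.9, 64.0 and 64.2 CPM in control cells and 100.4, 104 and 107 CPM under overexpression, the smallest rise of the 11 (log2 fold change 0.70 ± 0.03, n = 3 against 3, edgeR adjusted p = 1.31e-21). Kif4, the other chromokinesin of the list and a partner of Prc1 in the spindle midzone, had 39.4, 40.4 and 39.2 CPM against 122, 115 and 125 CPM and rose 3.04-fold. Both chromokinesins thus rose without overlap of the groups, to unequal extents. Kif2c, which takes microtubule ends apart at kinetochores and so frees wrong attachments, rose 2.21-fold, from 50.04 ± 4.46 to 111 ± 3.09 CPM (SD, n = 3). Kif18a, which damps the movements of aligned chromosomes, rose 2.75-fold from 16.7 ± 2.15 to 45.9 ± 2.03 CPM, and its near relative Kif18b, which shortens astral microtubules, 2.47-fold from 30.6 ± 3.50 to 75.7 ± 1.51 CPM. The lowest control library of Kif18b, 26.7 CPM in replicate 3, stood below the others at 31.7 and 33.5 CPM.

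Kif20a, Kif20b, Kif14 and Kif23, motors of the midzone and of cytokinesis, had the 4 largest fold changes of the class. Kif4, given above with the chromosome motors, also acts in the midzone, and its 3.04-fold rise was below the 3.34-fold rise of Kif11. Kif20a, which brings the chromosomal passenger complex with Aurkb to the midzone, had 28.6, 27.0 and 29.9 CPM in control cells and 142, 142 and 142 CPM under overexpression. Its log2 fold change of 2.32 ± 0.04 was the largest of the class (n = 3 against 3, edgeR adjusted p = 8.37e-46). Kif20b, which acts late in cytokinesis, had 46.7, 44.7 and 49.1 CPM against 216, 207 and 208 CPM, a 4.49-fold rise. Kif14, which works in cytokinesis with the citron kinase Cit, had 15.8, 16.1 and 16.5 CPM against 66.2, 71.5 and 71.6 CPM, a 4.33-fold rise. In these 3 genes the libraries of a group lay close together and far from those of the other group. Kif23, the motor subunit of centralspindlin, had 70.5, 68.1 and 71.9 CPM against 241, 255 and 240 CPM and rose 3.49-fold. With the length trend removed, Kif20a (2.36), Kif20b (1.92) and Kif14 (1.68) still had the largest log2 fold changes of the class, while Kif23 (1.48) came after Kif4 (1.52) and Kif18b (1.49).

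**Figure D2:**
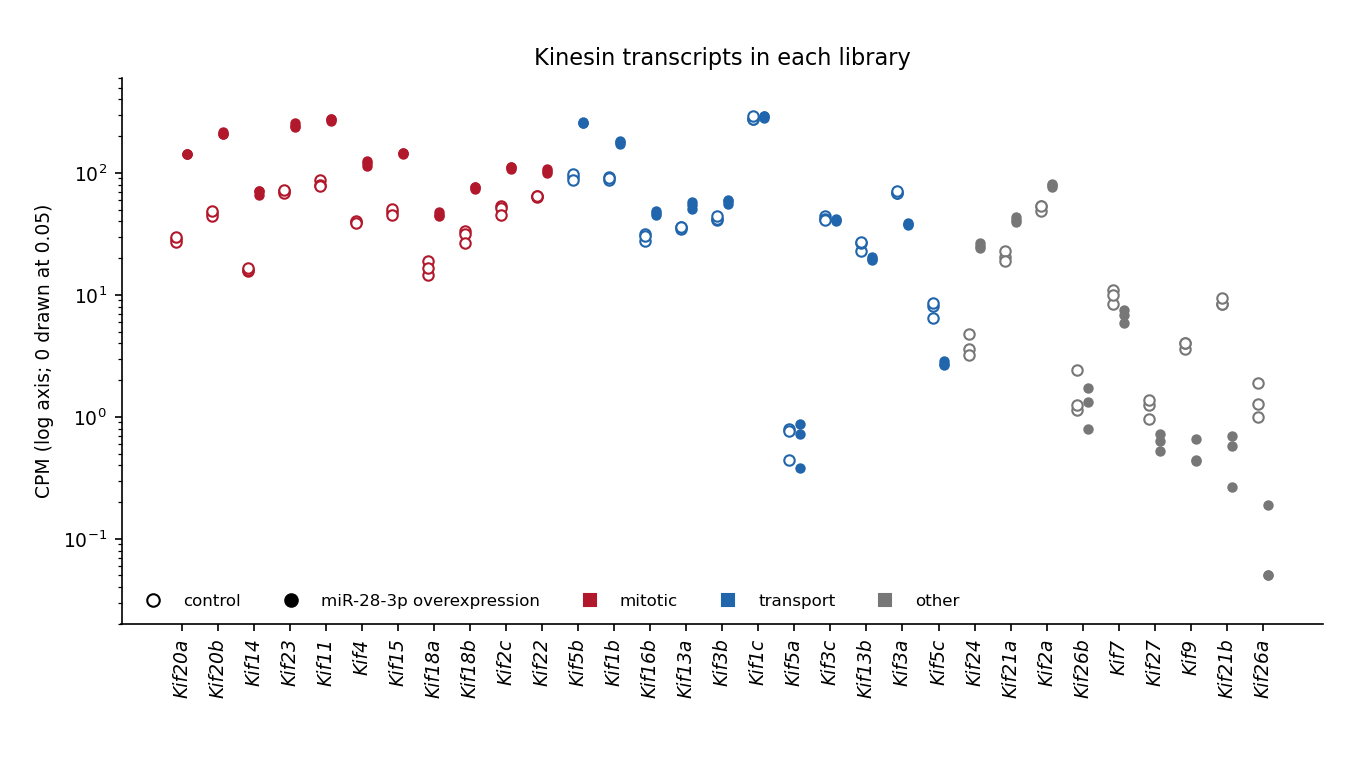
CPM of the 31 tested kinesins in each library on a log axis, open points for the 3 control and filled points for the 3 overexpression libraries, coloured by class and ordered within a class by log2 fold change. The 11 mitotic kinesins all shift upward without overlap, while transport kinesins and the others move both ways or, as Kif1c at 275 to 294 CPM, hardly at all.

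Of the 11 tested transport kinesins, 5 rose, 3 fell and 3 were not called, with a median log2 fold change of 0.04. Beside the 42.1% of all tested genes called higher and 43.9% called lower, that split is not a result about the class. The median of the mitotic class lay 1.56 above theirs on the log2 scale, a difference given without a test, since genes are not replicates. With the length trend removed the medians were 1.48 and -0.23. Against the 1.5-fold minimum 2 transport kinesins were higher and 2 lower. The split moved with the scaling, to 5 higher and 5 lower both with upper quartile scaling and with the length trend removed, which shifted Kif1c and Kif3c to lower calls.

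In kinesin-1, the conventional motor whose heavy chains pair with light chains to carry vesicles and mitochondria, the heavy chains parted ways. Kif5b, the heavy chain made in most tissues, had 92.6, 98.1 and 87.5 CPM in control cells and 255, 264 and 258 CPM under overexpression. Its log2 fold change of 1.48 ± 0.05 (n = 3 against 3, edgeR adjusted p = 9.67e-44) lay within the range of the mitotic class and stayed at 1.15 with the length trend removed. Kif5c, a heavy chain best known from neurons, had 6.47, 8.05 and 8.57 CPM against 2.88, 2.71 and 2.65 CPM. All 3 overexpression libraries lay below the controls (log2 fold change -1.48 ± 0.13, n = 3 against 3, edgeR adjusted p = 7e-11). Kif5a, likewise neuronal, stayed at 31 counts in the controls and 29 with overexpression, and was not called (log2 fold change -0.03 ± 0.37, n = 3 against 3, edgeR adjusted p = 0.953), with the sign turning when single libraries were left out.

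In kinesin-2, which carries cargo along cilia as a trimer of Kif3a, Kif3b and the adaptor Kifap3, the motor subunits changed in opposite directions. Kif3a (chromosome 11, 53567379 to 53601967) had 68.5, 68.5 and 70.9 CPM in control cells and 37.9, 38.5 and 37.7 CPM under overexpression, a fall of 1.82-fold (edgeR adjusted p = 1.02e-21). Kif3b had 40.9, 41.6 and 44.0 CPM against 58.3, 59.7 and 55.1 CPM, a rise of 1.37-fold (edgeR adjusted p = 2.26e-10). In neither gene did the groups overlap. Kif3c, which can pair with Kif3a in place of Kif3b, was not called at 42.4 ± 1.35 and 41.3 ± 0.931 CPM (SD, n = 3). The ratio of Kif3a to Kif3b in FPKM (reads scaled to gene length and library total), which needs no scaling between libraries, went from 2.59 ± 0.0486 in the controls to 1.04 ± 0.033 with overexpression, so the messages came to near equal levels per length. For this and 7 more ratios between genes, 8 in all and chosen with values in view, the exact two-sided permutation p was 0.1, also after adjustment, the smallest that 3 against 3 libraries can give. Kifap3 fell 1.37-fold from 80.3 ± 1.28 to 58.7 ± 3.67 CPM, and the ratio of Kif3a to Kifap3 FPKM went from 0.965 ± 0.0222 to 0.728 ± 0.0521.

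Of the tested transport members of kinesin-3, motors of vesicles and endosomes, 3 rose, 1 fell and 1 was not called (the mitotic Kif14, described above, is of the same family). With 42.1% of all tested genes called higher and 43.9% lower, that split says little about the family. Kif1b, which carries mitochondria and synaptic vesicle precursors, had 92.3, 86.9 and 90.9 CPM in control cells and 182, 178 and 172 CPM under overexpression. Its log2 fold change of 0.98 ± 0.03 fell to 0.35 with the length trend removed, still called (edgeR adjusted p = 3.63e-13), and its gene model of 17809 bases is the longest of all kinesins. Kif13a and Kif16b, motors of recycling and early endosomes, rose 1.54-fold and 1.57-fold, to 54.6 ± 3.64 and 47.0 ± 1.71 CPM (SD, n = 3), and neither passed the 1.5-fold minimum. With the length trend removed their log2 fold changes of 0.62 and 0.65 came to 0.28 and 0.27, still called (edgeR adjusted p = 3.84e-05 and 0.000209). Kif13b, the close relative of Kif13a, fell 1.29-fold, from 25.7 ± 2.43 to 19.8 ± 0.672 CPM (edgeR adjusted p = 8.6e-05), and its log2 fold change of -0.37 went to -0.89 with the length trend removed (edgeR adjusted p = 8.33e-15).

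Kif1c, a fast vesicle motor (chromosome 11, 70700548 to 70731964), had the highest level per length of any kinesin in every library. It had 279, 275 and 291 CPM in control cells and 294, 294 and 284 CPM under overexpression, and the groups overlapped. Its log2 fold change of 0.04 ± 0.03 was not called (edgeR adjusted p = 0.124), and dropping either library numbered 3 gave a higher call (0.07 without the control, edgeR adjusted p = 0.0224, and 0.07 without the overexpression library, 0.0422). The sign rests on the scaling, with -0.19 under upper quartile scaling and -0.23 with the length trend removed, both called lower. Upper quartile scaling shifted the median of all tested genes from -0.03 to -0.26, while Kif1c went from 0.04 to -0.19.

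**Figure D3:**
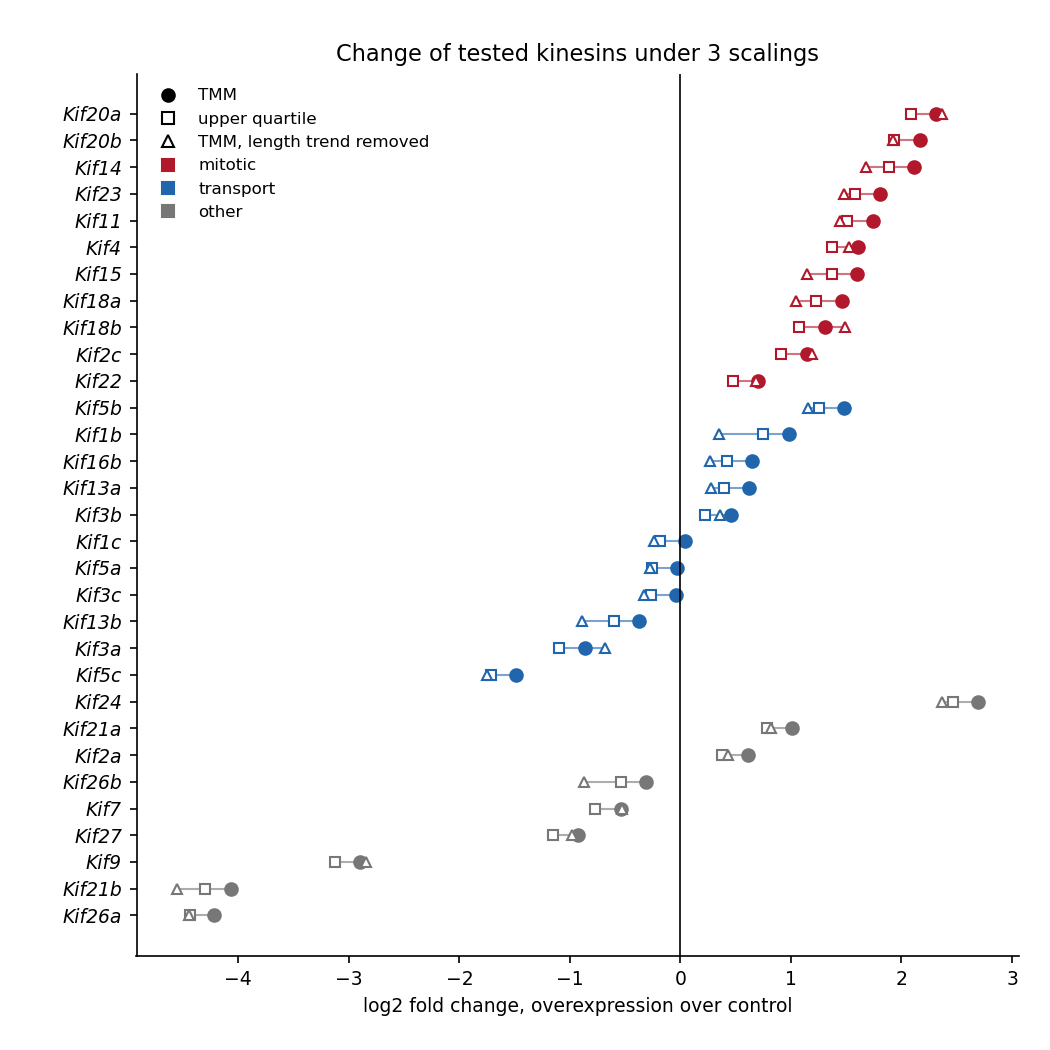
Log2 fold change (x axis, overexpression over control) of the 31 tested kinesins under TMM (filled circles), upper quartile scaling (squares) and TMM with the gene length trend removed (triangles), coloured by class. Every mitotic kinesin stays right of 0 under the 3 scalings, from 0.47 for Kif22 upward, while Kif1c changes sign.

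With TMM the 9 other tested kinesins held the widest changes in both directions. Of these, 3 rose, 5 fell and 1 was not called, with a median log2 fold change of -0.54. Over all tested genes 42.1% were higher and 43.9% lower, so that split is not a result about the group. Against the 1.5-fold minimum 2 were higher and 3 lower, beside 23.4% and 27.0% of all tested genes. Kif24 (chromosome 4, 41390745 to 41464887), a centriolar motor that holds back the growth of cilia in cycling cells, had 4.77, 3.63 and 3.24 CPM in control cells and 26.5, 25.2 and 24.0 CPM under overexpression. Its log2 fold change of 2.70 ± 0.17 was the largest rise of all kinesins (n = 3 against 3, edgeR adjusted p = 1.02e-28). Kif21a, which restrains microtubule growth at the cell edge, rose 2.01-fold from 20.7 ± 1.999 to 41.6 ± 1.77 CPM (SD, n = 3). Kif2a, which takes microtubule ends apart both at spindle poles and in neurons, had 53.3, 48.8 and 53.5 CPM against 76.9, 79.0 and 81.5 CPM, a 1.53-fold rise, and did not pass the 1.5-fold minimum.

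The 5 that fell were of low level in the controls, at 9.78 CPM (Kif7) or below. Kif21b, Kif9, Kif26a and Kif27 had enough counts for the test only in the controls. Genes low in both groups were left out, so the filter itself favours large changes among genes of low level. Over all settings the log2 fold changes ran from -4.56 to -0.74 (Kif21b), from -3.12 to -0.79 (Kif9) and from -7.40 to -0.26 (Kif26a). For Kif27 they ran from -1.16 to -0.15. The smallest falls came from log2(FPKM + 1), which adds 1 to levels that were here below 1 FPKM and so shrinks the change. Kif21b (chromosome 1, 136131389 to 136177998), the relative of Kif21a best known from neurons and lymphocytes, had 8.42, 8.38 and 9.40 CPM in control cells and 0.577, 0.264 and 0.695 CPM under overexpression. Its log2 fold change was -4.07 ± 0.33 (n = 3 against 3, edgeR adjusted p = 4.28e-22), so that the Kif21 pair moved in opposite directions. Kif9, a motor of motile cilia and sperm tails, had 3.58, 4.02 and 4.001 CPM against 0.433, 0.660 and 0.442 CPM, a 7.44-fold fall. Kif26a, a kinesin-like protein without motor activity, had 65 reads counted over the controls and 3 over the overexpression libraries, all 3 in replicate 3. The controls thus had 20.7 times the reads per depth (exact 95% interval 6.79 to 103, counting error only).

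Kif7 and its paralog Kif27 had smaller log2 fold changes. Kif7, which works at the tip of the cilium in Hedgehog signalling, had 8.42, 11.01 and 9.91 CPM in control cells and 5.84, 6.80 and 7.45 CPM under overexpression, a 1.45-fold fall without overlap (edgeR adjusted p = 0.000414). Kif27, which passed the filter only through the controls, had 20, 21 and 15 counts against 10, 8 and 10. It was called lower by a small margin (log2 fold change -0.93 ± 0.18, n = 3 against 3, edgeR adjusted p = 0.0331). That call was lost in DESeq2 (adjusted p = 0.111) and without either of control replicates 1 and 2 (edgeR adjusted p = 0.0718 and 0.104) or overexpression replicates 2 and 3 (0.102 and 0.0758). Kif26b, with 75 and 58 counts, was not called, and its value of -0.31 turned to 0.12 once control replicate 3 was dropped.

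Per gene length, mitotic kinesins took a larger share of the kinesin messages in each of the 3 overexpression libraries than in any control library. The summed FPKM of the 38 genes was 204, 201 and 201 in the controls and 380, 378 and 378 with overexpression. Mitotic kinesins took 42.1%, 41.5% and 40.4% of it in the controls and 62.6%, 62.2% and 62.9% with overexpression. Transport kinesins took 49.8%, 50.2% and 51.4%, then 31.5%, 31.7% and 30.9%, although their own sum went from between 101 and 104 to between 117 and 120 FPKM. The sum of mitotic FPKM over that of transport FPKM, which needs no scaling between libraries, was 0.845, 0.827 and 0.786 in the controls and 1.99, 1.96 and 2.04 with overexpression, and so no control library came near an overexpression library.

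**Figure D4:**
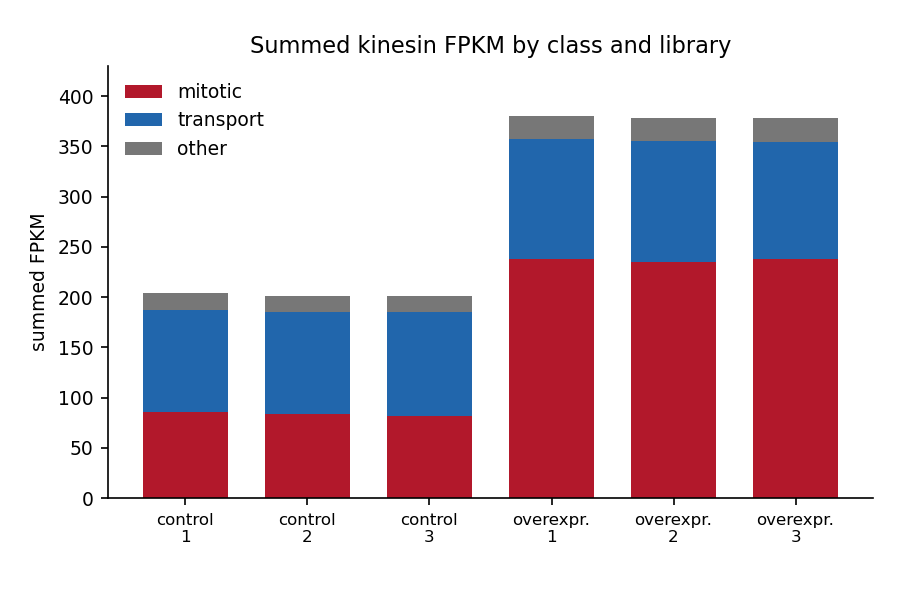
Summed FPKM (y axis) of mitotic, transport and other kinesins in each of the 6 libraries, stacked. The transport part stays between 101 and 120 FPKM, while the mitotic part goes from between 81.3 and 85.8 to between 235 and 238 FPKM.

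The order of single kinesins by level per length was given over 3 libraries a group, as a description. In the controls Kif1c led with 40.0 ± 1.13 FPKM (SD, n = 3), followed by Kif3a with 19.95 ± 0.388 and Kif22 with 13.4 ± 0.118 FPKM. With overexpression Kif1c still led with 38.6 ± 0.806 FPKM, now followed by Kif11 with 35.4 ± 0.519, Kif20a with 31.6 ± 0.104 and Kif5b with 31.4 ± 0.525 FPKM, the last pair differing by less than the spread of Kif5b. Kif3a stood at 10.3 ± 0.124 FPKM there. The ratio of Kif11 to Kif1c FPKM went from 0.284 ± 0.0224 to 0.917 ± 0.0294.

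**Figure D5:**
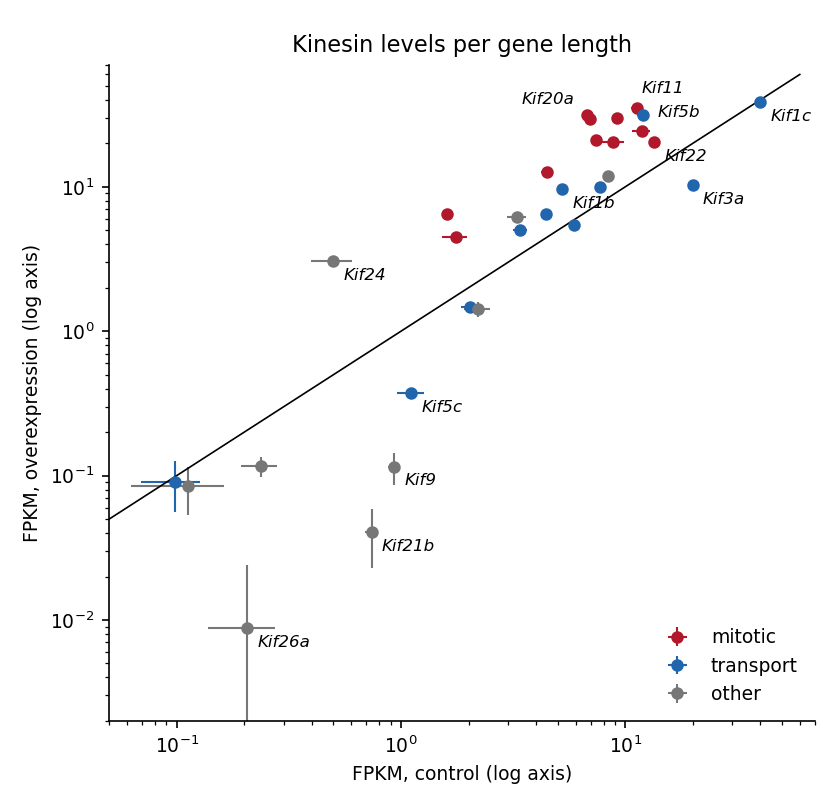
Mean FPKM of the 31 tested kinesins in the controls (x axis) and with overexpression (y axis), both on log axes, with SD over 3 libraries as bars and the line of equal values. The mitotic kinesins all lie above the line, Kif1c lies close to it at 40.0 and 38.6 FPKM, and Kif3a, Kif5c, Kif9, Kif21b and Kif26a lie below it.

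Genes of the same machinery were read from lists set by textbook role. All 20 mitotic partners of kinesins rose and 0 fell, with a median log2 fold change of 1.30, beside the 42.1% of all genes called higher. Ect2, the exchange factor that centralspindlin recruits to drive the cleavage furrow, rose 4.47-fold from 68.7 ± 1.19 to 307 ± 2.07 CPM (SD, n = 3). Hmmr and Prc1, which bind spindle microtubules and their midzone overlaps, rose 4.64-fold and 4.33-fold, and Ckap5, a microtubule polymerase, 2.87-fold. Racgap1, the partner of Kif23 in centralspindlin, rose 2.51-fold from 100.1 ± 1.72 to 251 ± 7.26 CPM, and the ratio of Kif23 to Racgap1 FPKM went from 0.628 ± 0.0239 to 0.875 ± 0.0474. The ratio of Kif20a to Aurkb FPKM went from 0.323 ± 0.0237 to 0.853 ± 0.0223.

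Of the 5 kinesins without a numbered symbol, 3 rose, 1 fell and 1 was not called, beside 42.1% of all tested genes higher and 43.9% lower. Cenpe, the kinetochore motor that brings chromosomes to the spindle equator, rose 3.84-fold from 75.6 ± 1.33 to 291 ± 12.5 CPM (SD, n = 3). Kifc1, a minus end motor that focuses spindle poles, rose 1.44-fold, and its reads may be shared with the similar gene Kifc5b. Stard9 rose 1.66-fold, a change that stood at 0.01 on the log2 scale with the length trend removed. Kifc3, a minus end motor of epithelial junctions, was not called (log2 fold change 0.12, edgeR adjusted p = 0.0579). Kifc2, a minus end motor best known from neurons, fell 15.7-fold from 13.1 ± 0.930 to 0.805 ± 0.518 CPM. Its overexpression counts were 3, 18 and 16, and it had enough counts for the test only in the controls.

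Of 18 tested light chains and cargo adaptors, 6 were higher and 9 lower (median log2 fold change -0.20). With upper quartile scaling 5 were higher and 12 lower, beside 3961 higher and 6288 lower of all 11809 tested genes. With TMM 42.1% of all tested genes were higher and 43.9% lower, so the 6 and 9 are near the background. The kinesin-1 light chain Klc4 fell 9.30-fold from 42.0 ± 2.94 to 4.52 ± 0.613 CPM (SD, n = 3). Trak2, which links kinesin-1 to mitochondria, rose 3.41-fold, and Spag9, a scaffold that binds kinesin-1 and dynein, rose 2.39-fold. Mapk8ip3, a scaffold of like function, fell 1.80-fold. With the length trend removed, the log2 fold change of Spag9 went from 1.26 to 0.79 and that of Mapk8ip3 from -0.85 to -1.41. The ratio of Kif5b to the light chain Klc1 in FPKM went from 0.426 ± 0.02 to 0.871 ± 0.0255.

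Cytoplasmic dynein, which walks the other way along microtubules, and its activator dynactin had 7 of 22 tested genes higher and 12 lower (median log2 fold change -0.18), beside the same 42.1% and 43.9% of all tested genes. With upper quartile scaling 5 were higher and 15 lower, beside 3961 higher and 6288 lower of all 11809 tested genes. The list also holds the dynein regulators Pafah1b1, Nde1 and Ndel1, and Pafah1b1 and Nde1 were among those higher. The motor subunit Dync1h1 rose 1.83-fold from 424 ± 8.37 to 779 ± 26.8 CPM (SD, n = 3), and its log2 fold change of 0.88 fell to 0.29 with the length trend removed. The dynactin genes Dctn2 and Dctn6 fell 1.79-fold and 2.15-fold and the dynein light chain Dynlrb1 1.92-fold, the last from a log2 fold change of -0.94 to -0.22 with the length trend removed.

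The 3' UTRs of the kinesins were searched for sites of the microRNA. Mature mouse miR-28a-3p (chr16:24827908-24827929, plus strand, RefSeq on GRCm38.p6) is shown with its seed, bases 2 to 8, in capitals, since those bases pair with targets.
mmu-miR-28a-3p: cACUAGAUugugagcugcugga
The matching 7-mer ATCTAGT was searched in the longest annotated 3' UTR of each gene in GENCODE release M21. It lay in 0 of 11 tested mitotic kinesins, 1 of 11 transport kinesins and 2 of 9 others, against 6.49% of 11656 tested genes with a 3' UTR. The 3 sites, with the 7-mer in capitals, lie at chr13:106960831-106960837 (Kif2a, minus strand), chr1:178935521-178935527 (Kif26b, plus strand), chr2:142619605-142619611 (Kif16b, minus strand) on GRCm38.
Kif2a: ttcccactATCTAGTccagtagg
Kif26b: ttcaaagaATCTAGTgtgaggca
Kif16b: cacaccatATCTAGTgcctgagt
Of these, Kif2a and Kif16b rose and Kif26b was not called, and 0 of the 8 kinesins that fell carried the 7-mer in the UTR searched. With the 7-mer in 6.49% of tested genes, 8 genes are too few to show a lack of sites. Over all tested genes the median log2 fold change was 0.36 with the 7-mer and -0.05 without it. These medians were taken without removal of the length trend, and the part of gene length in their difference was not tested. The median 3' UTR of the tested mitotic kinesins was 555 bases, that of the transport kinesins 3085 bases and that of all tested genes 1197 bases.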

How the data were processed

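The deposited table gives, for each gene and library, raw read counts and FPKM values (fragments scaled to gene length and library total). Per the submitters' processing notes HISAT2, HTSeq and DESeq were used, with mm9 as the build, without versions or a strand setting. The gene coordinates in the deposited table are those of GENCODE M21 on GRCm38 for all 38 kinesins. The FPKM values equal the counts divided by gene length and by the column total.

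Counts were tested with edgeR 4.0.16 in R 4.3.3 (filterByExpr with a minimum count of 10, TMM, robust quasi-likelihood test, Benjamini-Hochberg over 11809 tested genes, adjusted p under 0.05). The SE is that of the difference of mean log2 CPM with a prior count of 2. The length trend was removed by a smooth offset on gene length in the same fit. Exact 95% intervals and limits of 3 counts cover counting error only. The script was tested on simulated data. Replicates differed by more than sampling noise.

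The members and lists were chosen with earlier results of these data known. Every tested kinesin is named. Of each partner list the 4 genes with the smallest p are named (all of the 5 further kinesins), and Racgap1, Aurkb, Klc1 and Kifap3 were added after values were seen. Promoters of the other kinesins were not printed. Without stranded counting, reads of overlapping genes cannot be told apart. Alternatives were upper quartile scaling, no filter, a 1.5-fold minimum, removal of the length trend, DESeq2 1.42.0, limma 3.58.1 on log2(FPKM + 1) and log2(FPKM + 0.1), the replicate number as a block, and leaving out each library.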

Additional observations from a re-analysis of the deposited data

How the results depend on the processing

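All 11 tested mitotic kinesins were called higher under each alternative run, while 4 of 11 transport kinesins (Kif1b, Kif5b, Kif3a and Kif5c) and 5 of 9 others kept 1 call throughout. Against a 1.5-fold minimum, 2762 genes were higher and 3185 lower, transport kinesins higher were 2, others lower 3, further kinesins higher 1, light chains and adaptors 2 higher and 5 lower, and dynein and dynactin 2 higher and 5 lower, fewer since that test asks for a larger change. Transport kinesins lower were 5 with upper quartile scaling and 5 with the length trend removed. The difference of the mitotic and transport medians, 1.56, was 1.72 with the length trend removed and 1.40 on log2(FPKM + 1), and ranged from 1.36 to 1.60 when single libraries were left out; the cause was not tested.

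Kif1c, at 0.04, changed sign to -0.19 with upper quartile scaling, -0.23 with the length trend removed, -0.0467 on log2(FPKM + 1) and -0.0478 on log2(FPKM + 0.1), and was called higher with no filter (0.06, edgeR adjusted p = 0.0314). Leaving out single libraries moved Kif26b between -0.57 and 0.12 and Kif5a between -0.26 and 0.26, positive for Kif5a without control replicate 2 (0.11), control replicate 3 (0.09) or overexpression replicate 3 (0.26). Kif26b was called lower with the length trend removed (-0.87, edgeR adjusted p = 0.017). The cause of these shifts was not tested.

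The labels do not say whether the replicate numbers pair the libraries. Deviations of same-numbered libraries correlated at -0.005, -0.003 and -0.031, which shows no shared deviation but cannot show how the cultures were handled. With the replicate number as a block, 4955 genes were higher and 5161 lower, and the difference of the medians was 1.56. Under the block Kif27 lost its call (edgeR adjusted p = 0.0556), as with no filter (0.0596), and no other kinesin's call changed. Depth limits Kif5a, Kif17, Kif26a, Kif26b, Kif27 and Kif28, each at 75 counts or fewer per group.

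An alternative chosen after seeing the data kept only RefSeq starts within 500 bases of the gene's 5′ end. It left 7 mitotic, 0 transport and 1 of the other kinesin promoters with a CHR form in place of 9, 1 and 2. The starts it left out in Kif14, Kif2c and Kif27 and the second start of Kif1a held a CHR form, and that of Kif17 did not.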
